A study of Homo sapiens with 4 samples.

Results

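The UDP glucuronosyltransferases (UGTs) of the UGT1A and UGT2 families were examined in 4 human hepatoma cultures profiled by RNA sequencing. Their members were taken by symbol: UGT1A1, UGT1A6, UGT2B4, UGT2B7, UGT2B10, UGT2B11 and UGT2B15, with every further listed gene whose symbol began with UGT1A or UGT2 (UGT1A4, UGT1A9, UGT2A3 and UGT2B28). This gave 11 genes of the 16370 listed in the series. The family was picked with the HCSC/HCC ratios of these cultures known, so the members were chosen by those ratios, which are given as a description without a test. All 11 genes were listed for the Hep3B cultures and 8 for the Huh7 cultures, where UGT1A9, UGT2B15 and UGT2B28 were not listed and are not analysed here.

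The hepatocellular carcinoma (HCC) group held Hep3B and Huh7, long established lines of human hepatoma. The hepatic cancer stem cell (HCSC) group held Hep3B-C and Huh7-C, each a stem-like culture derived from the line whose name it bears. No treatment, time point or genetic change was given for any culture. Each line was represented by 1 library, so the HCSC/HCC comparison within a line had no replicate, and the label HCSC rests on the culture and not on a sort.

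UGTs are membrane enzymes of the endoplasmic reticulum that transfer glucuronic acid from UDP-glucuronate to bilirubin, steroids, bile acids and drugs, which makes these molecules water soluble so that they can leave in bile or urine. The UGT1A genes form a single locus in which each gene has its own start and its own first exon, spliced to a common set of downstream exons, whereas the UGT2 genes are separate paralogs in a cluster. The liver is the main site of glucuronidation, and UGT1A1 is the enzyme that conjugates bilirubin.

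Genes of the UGT1A locus differ in the sequence just upstream of each start, as well as in the first exon. The upstream sequence is shown here for the UGT1A and UGT2 members with the highest counts or with the closest relatives. Promoters were taken from RefSeq (GRCh38.p14) as the 250 bases before the annotated start, in the direction of transcription, for the 9 of 11 genes with an entry. UGT2B4 and UGT2B28 had none. Capitals mark a short stretch searched on both strands (TTAACTT or its reverse complement AAGTTAA), which was chosen after the sequences were seen. The genes without it, UGT1A4, UGT1A6 and UGT1A9, are not among the lines below. The lines below give UGT1A1 (chr2:233760020-233760269, plus strand), UGT2A3 (chr4:68951805-68952054, minus strand), UGT2B7 (chr4:69096224-69096473, plus strand), UGT2B10 (chr4:68815744-68815993, plus strand) and UGT2B11 (chr4:69214749-69214998, minus strand).
UGT1A1: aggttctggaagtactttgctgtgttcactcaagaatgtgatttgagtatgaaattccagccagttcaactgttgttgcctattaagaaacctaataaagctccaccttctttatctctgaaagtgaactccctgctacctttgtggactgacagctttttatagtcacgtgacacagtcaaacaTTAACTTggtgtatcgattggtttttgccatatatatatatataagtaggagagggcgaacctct
UGT2A3: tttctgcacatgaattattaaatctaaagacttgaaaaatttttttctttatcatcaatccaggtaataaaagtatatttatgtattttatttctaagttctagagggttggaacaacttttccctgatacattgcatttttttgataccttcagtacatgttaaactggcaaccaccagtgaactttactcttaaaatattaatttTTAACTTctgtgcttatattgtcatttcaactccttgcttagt
UGT2B7: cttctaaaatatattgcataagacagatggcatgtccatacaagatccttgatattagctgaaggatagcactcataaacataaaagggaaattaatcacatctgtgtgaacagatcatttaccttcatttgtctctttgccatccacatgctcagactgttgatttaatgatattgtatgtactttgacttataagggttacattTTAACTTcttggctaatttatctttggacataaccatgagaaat
UGT2B10: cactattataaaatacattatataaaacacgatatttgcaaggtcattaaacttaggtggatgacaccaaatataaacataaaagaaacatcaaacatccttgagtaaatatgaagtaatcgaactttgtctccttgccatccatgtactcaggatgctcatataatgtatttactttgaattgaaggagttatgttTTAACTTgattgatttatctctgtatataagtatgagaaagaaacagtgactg
UGT2B11: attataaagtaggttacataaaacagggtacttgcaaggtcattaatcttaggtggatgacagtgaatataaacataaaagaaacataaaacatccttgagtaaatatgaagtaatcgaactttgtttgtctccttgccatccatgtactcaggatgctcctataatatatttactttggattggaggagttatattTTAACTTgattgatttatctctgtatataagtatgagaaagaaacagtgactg

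The stretch TTAACTT was found in 6 of the 9 genes (UGT1A1, UGT2A3, UGT2B7, UGT2B10, UGT2B11 and UGT2B15) and in 2.58% of 35116 RefSeq promoters of the same length. In UGT1A1 it began at position -65 from the start, and in the UGT2 genes it lay between positions -54 and -43. The UGT2B promoters resemble each other, so these matches are not separate events: UGT2B10 and UGT2B11 were identical in 229 of 254 alignment columns (90.2%), and UGT2B10 and UGT2B7 in 64.6% of columns. UGT1A1 and the second annotated start of UGT1A6 were identical in 50.3% of columns. A further motif, the core GCGTG (or CACGC) bound by the aryl hydrocarbon receptor, was found upstream of UGT1A4, UGT1A9 and the first annotated start of UGT1A6, and in 32.2% of all promoters. The nuclear receptor core AGGTCA (or TGACCT) was found upstream of UGT2B10, UGT2B11 and UGT2B15, and in 12.1% of all promoters. These matches describe letters in the sequence and do not show that a factor was bound.

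Total gene counts ranged from 2896418 in Hep3B to 4641927 in Hep3B-C, and 3 counts, used as a floor where a library had 0 counts, stood at 0.646 to 1.04 CPM (counts scaled to a common library total). All 8 hepatocyte markers had counts in each library, with a summed level of 49746 and 57473 CPM in the HCC lines and 26489 and 62363 CPM in the HCSC lines, although AFP was at 26 counts in Huh7 and 12 in Huh7-C, against 16175 in Hep3B. The 7 enterocyte markers, of an intestinal cell type that also expresses UGTs, summed to 238 and 308 CPM in HCC and 471 and 194 CPM in HCSC, mostly from VIL1 (649, 2147, 1119 and 559 counts in Hep3B, Hep3B-C, Huh7 and Huh7-C), while SI and CDX1 had 0 counts in every library. CDX2 had 37 to 117 counts, and CDH17 had 158 and 191 in the Huh7 cultures. The 3 immune markers summed to 101 and 134 CPM in HCC and 271 and 100 CPM in HCSC, nearly all from CD68, with PTPRC at 0. The 3 endothelial markers summed to 2.76 and 3.97 CPM in HCC and 2.80 and 21.5 CPM in HCSC, with CDH5 at 0 and PECAM1 at 17 counts in Huh7 and 93 in Huh7-C. The 4 stromal markers summed to 36 and 204 counts in HCC and 46 and 9 counts in HCSC, with DCN at 0 and PDGFRB at 186 counts in Huh7 and 2 in Huh7-C. The 4 cholangiocyte markers summed to 794 and 102 CPM in HCC and 271 and 140 CPM in HCSC, with KRT7 at 2 counts or fewer. The part of other cell types in the UGT results was not tested. In the Hep3B pair the HCSC/HCC ratio followed base composition across 11338 genes (Spearman 0.631 with GC content, which is across genes and not across replicates), whereas in the Huh7 pair the value was -0.0589. Among genes with 20 counts or more in a pair, the log2 HCSC/HCC ratio had a median of -0.55 in the Hep3B pair and 0.06 in the Huh7 pair. TMM scaling, which sets library sizes by the bulk of genes, moved the Hep3B median to 0.04. UGT ratios below are relative to total counts unless another scale is named.

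UGT1A1 had the most counts of the listed UGT1A genes in both HCSC libraries and was nearly silent in both parental lines. It had 2 counts in Hep3B (0.691 CPM), 279 in Hep3B-C (60.1 CPM), 2 in Huh7 (0.441 CPM) and 651 in Huh7-C (150.2 CPM). Both HCSC libraries thus stood far above both HCC libraries, and Huh7-C had the highest level. The HCSC/HCC ratio was 87.0 in the Hep3B pair (95% counting interval 23.9 to 722) and 341 in the Huh7 pair (94.0 to 2820). The intervals are wide because the denominator was 2 counts in each parental line, and they cover counting error only. In bulk RNA a change in the number of cells that express a gene and a change in RNA per cell cannot be told apart. On the log2 scale, with 0.5 added to each count, the ratios were 6.12 and 8.09, and with TMM scaling they were 6.72 and 8.05. With 5 added to each count they were 4.66 and 6.62, since the parental counts were so low.

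UGT1A6, which conjugates small planar phenols, had the same order of libraries at a lower level. Its counts were 2 in Hep3B against 32 in Hep3B-C, and 0 in Huh7 against 33 in Huh7-C. The ratio was 9.98 in the Hep3B pair (2.55 to 86.0). In the Huh7 pair the level was at least 11.5-fold higher in Huh7-C, computed against a floor of 3 counts in Huh7. The lower bound of the counting interval was 8.85 there. UGT1A4, which conjugates amines, had 0, 1, 0 and 2 counts in Hep3B, Hep3B-C, Huh7 and Huh7-C. UGT1A9, which conjugates bulky phenols, had 0 in Hep3B and 2 in Hep3B-C. The levels of UGT1A4 and UGT1A9 were within the floor in every library that listed them, and no ratio was formed.

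**Figure D1:**
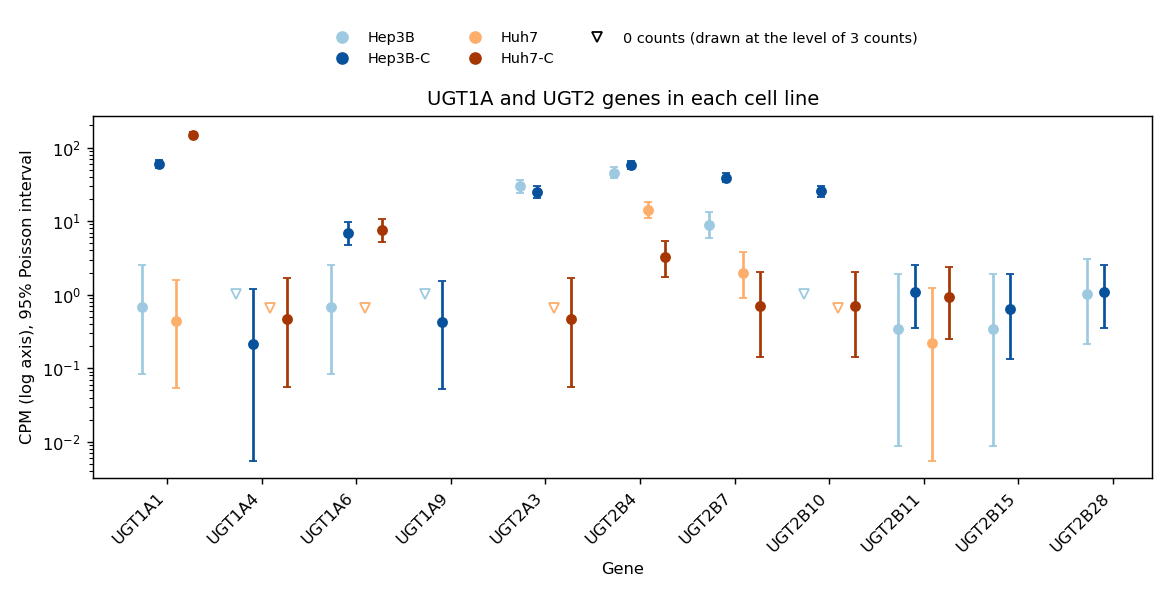
Level of each UGT1A and UGT2 gene in the 4 libraries, in CPM. Points are single libraries with 95% Poisson intervals of their counts, and open triangles are libraries with 0 counts, drawn at the level of 3 counts (log axis). UGT1A1 stood at 60.1 CPM in Hep3B-C and 150.2 CPM in Huh7-C and below 1 CPM in both parental lines, while UGT2B4 was highest in the Hep3B pair.

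The UGT1A genes cannot be separated fully by their reads. In GENCODE 29, UGT1A4, UGT1A6 and UGT1A9 each share 4 of 5 exons and 1478 bases with UGT1A1, which is 59.6% of the exon bases of UGT1A6. Of the 35-base windows of the UGT1A1 transcript, 61.6% occur in another listed UGT. How the authors' counting divided reads from the shared exons is not given in the sources used here. The split among the UGT1A genes is therefore uncertain. Reads of UGT1A genes that the series does not list may also have been counted to a listed gene. The sum over the listed genes is firmer than the value of any single gene. Summed UGT1A counts were 4 in Hep3B against 314 in Hep3B-C, and 2 in Huh7 against 686 in Huh7-C. The ratio of the sums was 49.0 (18.9 to 181) in the Hep3B pair and 359 (99.0 to 2971) in the Huh7 pair. UGT1A1 made up 88.9% of the counts of listed UGT1A genes in Hep3B-C (exact binomial interval 84.8 to 92.1%) and 94.9% in Huh7-C (93.0 to 96.4%). These intervals cover counting error only and not the uncertain split of the shared exons.

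UGT2B4, which conjugates bile acids, was the most abundant UGT of both parental lines and differed in direction between the pairs. It had 132 counts in Hep3B (45.6 CPM), 266 in Hep3B-C (57.3 CPM), 64 in Huh7 (14.1 CPM) and 14 in Huh7-C (3.23 CPM). The Hep3B cultures stood above the Huh7 cultures in either state, and Huh7-C was lowest. The HCSC/HCC ratio was 1.26 in the Hep3B pair (1.02 to 1.56) and 0.229 in the Huh7 pair (0.119 to 0.413).

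UGT2B7, which conjugates opioids and steroids, had 26 counts in Hep3B (8.98 CPM), 181 in Hep3B-C (39.0 CPM), 9 in Huh7 (1.98 CPM) and 3 in Huh7-C (0.692 CPM). It was thus highest in Hep3B-C and near the floor in Huh7-C. The ratio was 4.34 in the Hep3B pair (2.87 to 6.83). In the Huh7 pair the 12 counts in all did not resolve a direction, with a ratio of 0.349 and an interval of 0.0608 to 1.40.

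UGT2B10, which conjugates nicotine and other amines at nitrogen, was found in quantity only in Hep3B-C among the 4 libraries. Its counts were 0 in Hep3B, 118 in Hep3B-C (25.4 CPM), 0 in Huh7 and 3 in Huh7-C. The level was at least 24.5-fold higher in Hep3B-C than in Hep3B, computed against the floor of 3 counts. The lower bound of the counting interval was 19.6. In the Huh7 pair both libraries were at or under the floor. UGT2B11, whose upstream sequence is nearly that of UGT2B10 in the lines above, had 1, 5, 1 and 4 counts in Hep3B, Hep3B-C, Huh7 and Huh7-C, and 20.1% of the 35-base windows of UGT2B10 occur in it. UGT2B11 ratios were 3.12 (0.349 to 148) and 4.19 (0.414 to 206), so no direction was detectable at this depth.

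UGT2A3, a further hepatic and intestinal member, was plentiful in both Hep3B cultures and near 0 in both Huh7 cultures. It had 86 counts in Hep3B (29.7 CPM), 117 in Hep3B-C (25.2 CPM), 0 in Huh7 and 2 in Huh7-C. The ratio was 0.849 in the Hep3B pair (0.637 to 1.13), and on the log2 scale it was -0.24, which turned to 0.36 with TMM scaling. UGT2B15 and UGT2B28, which act on androgens and other steroids, had 1 and 3 counts in Hep3B and 3 and 5 in Hep3B-C. Of the 35-base windows of UGT2B15, 0.392% occur in another listed UGT, against 42.1% for UGT2B28. UGT genes that the series does not list were not compared, so the low share does not show that UGT2B15 reads are unique.

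**Figure D2:**
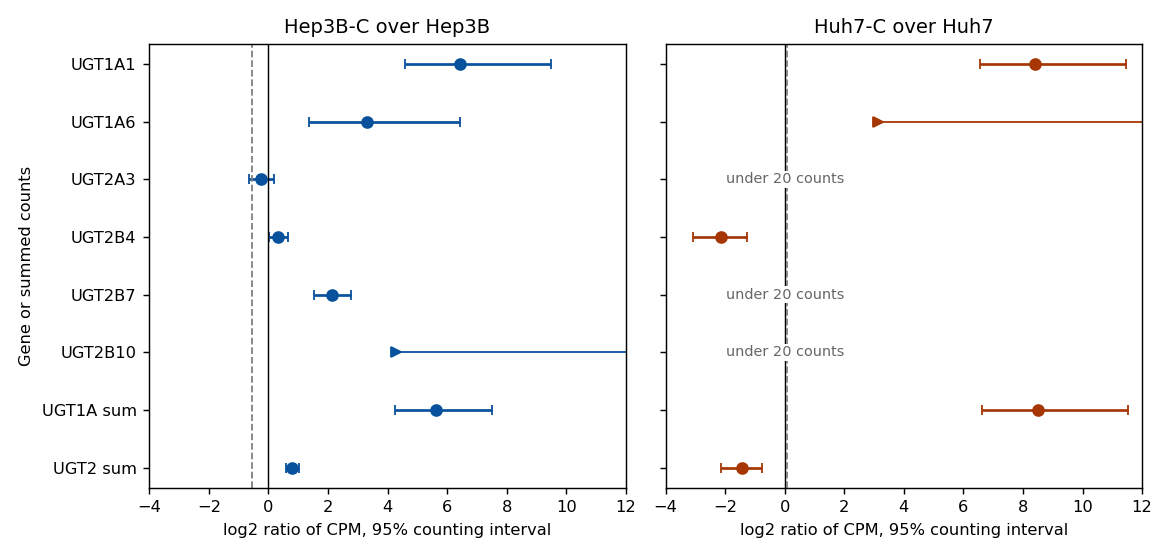
HCSC/HCC log2 ratio of each UGT gene in the Hep3B and the Huh7 pair, with no count added, for genes with at least 20 counts in a pair and for the summed UGT1A and UGT2 counts. Bars are 95% counting intervals, and dashed lines are the median of all genes. Triangles are the lower bounds of these intervals for genes with 0 counts in the parental line. UGT1A1 and UGT1A6 lay above 0 in both pairs, and UGT2B4 lay above 0 in the Hep3B pair and below it in the Huh7 pair.

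Of the 11 members, 6 had at least 20 counts in the Hep3B pair. There 4 of them (UGT1A1, UGT1A6, UGT2B7 and UGT2B10) were at least 2-fold higher in HCSC and 0 were at least 2-fold lower, beside 18.5% of 11433 genes higher and 38.9% lower. In the Huh7 pair 3 of 8 reached 20 counts, with 2 higher (UGT1A1 and UGT1A6) and 1 lower (UGT2B4), beside 6.66% and 6.53% of 11134 genes. UGT1A1 and UGT1A6 were higher in both pairs, as were 0.913% of 10294 genes. UGT1A1, UGT1A6 and UGT2B10 reached the minimum only through their HCSC libraries, and these ratios chose the family, so nothing is read from the counts.

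The Hep3B ratios also depended on base composition. The UGT2 transcripts had a GC content of 35.6% in UGT2A3 and 39.4% in UGT2B7, and 1506 genes of 35 to 40% GC had a median log2 ratio of -1.65 in the Hep3B pair, against 0.15 in the Huh7 pair. UGT1A1 and UGT1A6 had 46.7% and 44.1% GC, and the 1302 genes of 44 to 47% GC had a median of -0.96 in the Hep3B pair. After removal of the trends with GC content and length, the log2 ratio in the Hep3B pair was 6.80 for UGT1A1, 4.02 for UGT1A6 and 3.35 for UGT2B7. UGT2B10 had 0 counts in Hep3B, so its ratio on this scale depends on the count added and is not given. On the same scale UGT2B4 and UGT2A3 passed 2-fold, at 1.62 and 1.50. The part of base composition in the UGT ratios was not tested further.

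**Figure D3:**
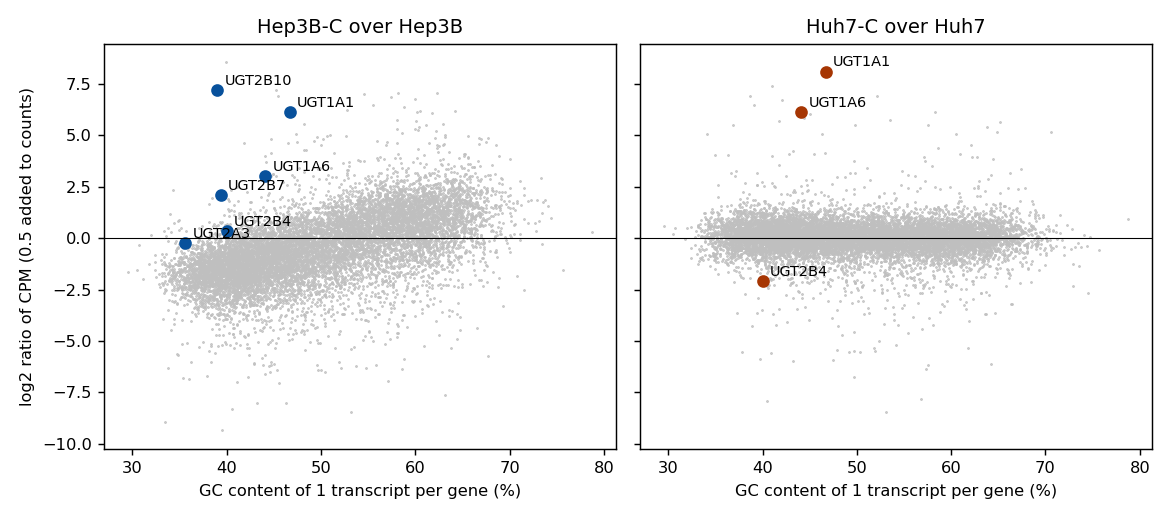
HCSC/HCC log2 ratio against transcript GC content (percent) in the Hep3B pair and the Huh7 pair, with all genes of at least 20 counts in grey and UGT genes in colour. The height of UGT2B10, at 0 counts in Hep3B, and of UGT1A6, at 0 in Huh7, rests on the 0.5 added to each count. In the Hep3B pair low-GC genes lay below 0 (median -1.65 at 35 to 40% GC) while UGT2B7 and UGT2B10 lay above it.

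Summed over both families, UGT counts were 253 in Hep3B against 1009 in Hep3B-C, and 76 in Huh7 against 712 in Huh7-C, or 37.6, 95.4, 8.07 and 69.8 in RPKM (counts per kilobase of gene length, scaled to the library total). Both HCSC cultures thus had more UGT transcript than their parents, with ratios of 2.49 (2.17 to 2.87) and 9.81 (7.73 to 12.6). The UGT2 genes alone differed in direction between the pairs. Their sums were 249 in Hep3B against 695 in Hep3B-C, and 74 in Huh7 against 26 in Huh7-C, with ratios of 1.74 (1.50 to 2.02) and 0.368 (0.226 to 0.582).

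The makeup of the summed RPKM differed between all 4 cultures. In Hep3B it was led by UGT2B4 (57.6%), UGT2A3 (25.7%) and UGT2B7 (12.6%). In Hep3B-C it was spread over UGT2B4 (28.6%), UGT1A1 (26.7%), UGT2B7 (21.7%), UGT2B10 (9.67%) and UGT2A3 (8.61%). Hep3B-C was thus the culture with the most even makeup, and it held appreciable transcript of both families. In Huh7 UGT2B4 took 83.1% and UGT2B7 13.0%, whereas in Huh7-C UGT1A1 took 91.3% and UGT2B4 2.20%.

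**Figure D4:**
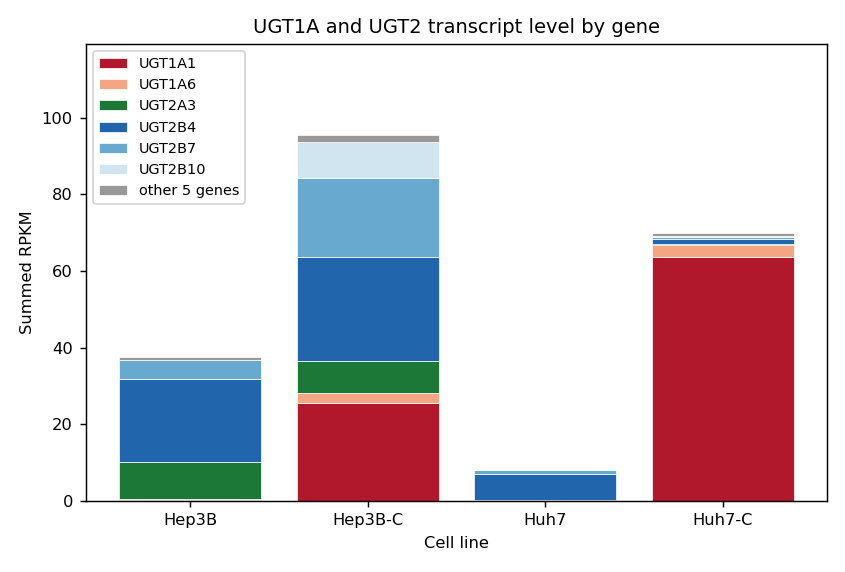
Summed RPKM of the UGT1A and UGT2 genes in each library, stacked by gene. The total was 37.6 in Hep3B against 95.4 in Hep3B-C, and 8.07 in Huh7 against 69.8 in Huh7-C, and UGT1A1 made up 91.3% of the Huh7-C total.

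The lines of origin were then compared, a contrast other than the HCSC/HCC ratios. Earlier results of these data, with the levels in each line, were known when the genes were chosen. The values are thus a description. edgeR's quasi-likelihood test of the Huh7 lineage (Huh7 and Huh7-C) against the Hep3B lineage, with the state as a second term, was fitted over 11691 genes with 1 residual degree of freedom. Of the 11 UGT genes 5 passed the filter on low counts, and 3 were called lower in the Huh7 lineage at an FDR of 0.05, beside 4.82% of all genes in that direction. None of the 5 was called higher, beside 3.65% of all genes. UGT2A3 and UGT2B7 passed the filter through the Hep3B lineage, where they were high. Nothing is thus read from these counts of calls or from the p-values of UGT2A3 and UGT2B7. UGT2A3, at 86 and 117 counts in the Hep3B lineage and 0 and 2 in the Huh7 lineage, had a log2 fold-change of -6.86 (SE 1.26, edgeR adjusted p = 3.84e-06). For UGT2B7 it was -3.85 (SE 1.11, edgeR adjusted p = 0.00863), and for UGT2B4 -2.87 (SE 0.970, edgeR adjusted p = 0.0385). In all 3 genes both libraries of the Hep3B lineage stood above both of the Huh7 lineage. The log2 fold-changes of UGT1A1 (0.70, SE 1.04, edgeR adjusted p = 0.874) and UGT1A6 (-0.72, SE 1.16, edgeR adjusted p = 0.885) were smaller than their errors. A line and the culture grown from it are not separate cultures of a group. The 1 residual degree of freedom was the difference between the lineages in their HCSC/HCC change. These p-values thus hold for these 4 libraries only and measure no spread between replicate cultures. The number of calls was 4 without Hep3B, 0 without Huh7, 1 without Hep3B-C and 1 without Huh7-C, and UGT2B4 was not called when the state term was left out (edgeR adjusted p = 0.103). The hepatocyte markers went both ways between the lineages. ALB (56598 counts in Hep3B and 482 in Huh7), AFP, APOB, TF and TTR were higher in both Hep3B cultures than in both Huh7 cultures, FGB was lower in both (268 and 109 counts against 6516 and 3275), and APOA1 and SERPINA1 overlapped. The part of these differences in the UGT contrast was not tested.

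Genes that work with UGTs were read from lists of 55 genes in 6 groups. In the edgeR test of HCSC against HCC with the parental line as a block, 43 of the 55 were tested and 0 were called at an FDR of 0.05, beside 0.077% of all genes. At an unadjusted p under 0.05 there were 4 (NQO1, NR1H4, VDR and CYP2B6), beside 3.18% of all genes, and DESeq2 gave 0 calls and 3 at that level. Leaving out a library also took out the parental block and left a lone library in its group, so those fits differed from this one in more than the library. By the fold rule alone, with no test, 14 of 44 genes with enough counts were at least 2-fold higher and 13 at least 2-fold lower in the Hep3B pair, a split that became 20 and 7 with TMM scaling and 8 and 7 after removal of the GC and length trends. Over all genes 18.5% were higher and 38.9% lower before either change. The median log2 ratio of all genes moved to 0.04 with TMM scaling and 0.02 with the trends removed. Shares of all genes on those scales are not given, here or for the lists below. In the Huh7 pair 2 of 38 were higher and 4 lower, beside 6.66% and 6.53% of all genes, and these shares are the background for each list below. The median log2 ratio of the lists was 0.28 in the Hep3B pair and -0.12 in the Huh7 pair, beside -0.55 and 0.06 over all genes.

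The regulators known to act on UGT genes differed among themselves. Of 19 genes, 3 were at least 2-fold higher and 7 lower among 16 with enough counts in the Hep3B pair. This was near the shares of all genes (18.5% and 38.9%). After removal of the GC and length trends there were 0 higher and 5 lower. In the Huh7 pair 1 was higher (VDR) and 2 were lower (NR1H4 and CEBPA) among 17, beside 6.66% and 6.53% of all genes. HNF4A, a regulator of many hepatocyte genes, had 585 counts in Hep3B against 1362 in Hep3B-C, and 1726 in Huh7 against 1159 in Huh7-C, with ratios of 1.45 (1.32 to 1.60) and 0.703 (0.652 to 0.758). HNF4A was thus higher in the Hep3B pair and lower in the Huh7 pair. With the trends of GC content and length removed, the Hep3B log2 ratio of HNF4A was -0.01 in place of 0.54.

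The receptors and stress regulators varied as well. AHR, the aryl hydrocarbon receptor that senses planar aromatic compounds, had 755 counts in Hep3B against 192 in Hep3B-C, and 312 in Huh7 against 583 in Huh7-C, so it was lower in the Hep3B pair (ratio 0.159, 0.135 to 0.186) and higher in the Huh7 pair (1.96, 1.70 to 2.25). Its Hep3B log2 ratio was -2.65, or -0.67 with the same trends removed. NFE2L2, the factor of the oxidative stress response, had 529, 462, 765 and 1114 counts in the same order. NR1H4, the bile acid receptor, was the single regulator at least 2-fold lower in both pairs, as were 2.43% of 10294 genes. It had 165 counts in Hep3B against 16 in Hep3B-C, and 46 in Huh7 against 15 in Huh7-C, and its edgeR log2 fold-change was -2.64 (SE 0.977, adjusted p = 0.923). The remaining regulators given here were named after their values were seen. VDR, the vitamin D receptor, was higher in the HCSC culture of both pairs at low counts, with 0 in Hep3B and 11 in Hep3B-C, under the count minimum, and 7 in Huh7 and 27 in Huh7-C, a ratio of 4.04 with a lower interval bound of 1.72. Its edgeR log2 fold-change was 2.75 (SE 1.21, adjusted p = 0.999). RXRA, the partner of these receptors, had 316, 635, 150 and 202 counts in Hep3B, Hep3B-C, Huh7 and Huh7-C, with log2 ratios of 0.33 and 0.49, and the Hep3B value became -0.06 with the trends removed. CEBPA, a hepatocyte factor, had 392, 727, 462 and 154 counts in Hep3B, Hep3B-C, Huh7 and Huh7-C, with a ratio of 0.349 (0.289 to 0.420) in the Huh7 pair. The xenobiotic receptors NR1I3 and NR1I2 were scarce, NR1I3 with 5, 5, 19 and 0 counts and NR1I2 with 0 in Hep3B and 4 in Hep3B-C.

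Among the enzymes known to be induced together with UGT1A genes, NQO1, a quinone reductase of the oxidative stress response, was at least 2-fold higher in both pairs. It had 48 counts in Hep3B against 1033 in Hep3B-C, and 191 in Huh7 against 648 in Huh7-C, with ratios of 13.4 (10.1 to 18.3) and 3.55 (3.02 to 4.20), and an edgeR log2 fold-change of 2.94 (SE 0.966, adjusted p = 0.501). CYP2B6, a drug oxidase and target of NR1I3, had 37, 1409, 5 and 2 counts in the same order and was thus high in Hep3B-C alone among these libraries. CYP1A1, the classical AHR target, had 50, 296, 450 and 522 counts, with ratios of 3.69 (2.73 to 5.09) and 1.21 (1.07 to 1.38). ALAS1, the first enzyme of heme synthesis, had 256, 453, 808 and 974 counts. Of the 9 genes of this list, 3 of 6 with enough counts were at least 2-fold higher and 1 lower in the Hep3B pair, and 1 of 3 was higher in the Huh7 pair. Over all genes 18.5% were higher and 38.9% lower in the Hep3B pair, and 6.66% higher in the Huh7 pair. Removal of the GC and length trends left the Hep3B counts at 3 and 1.

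**Figure D5:**
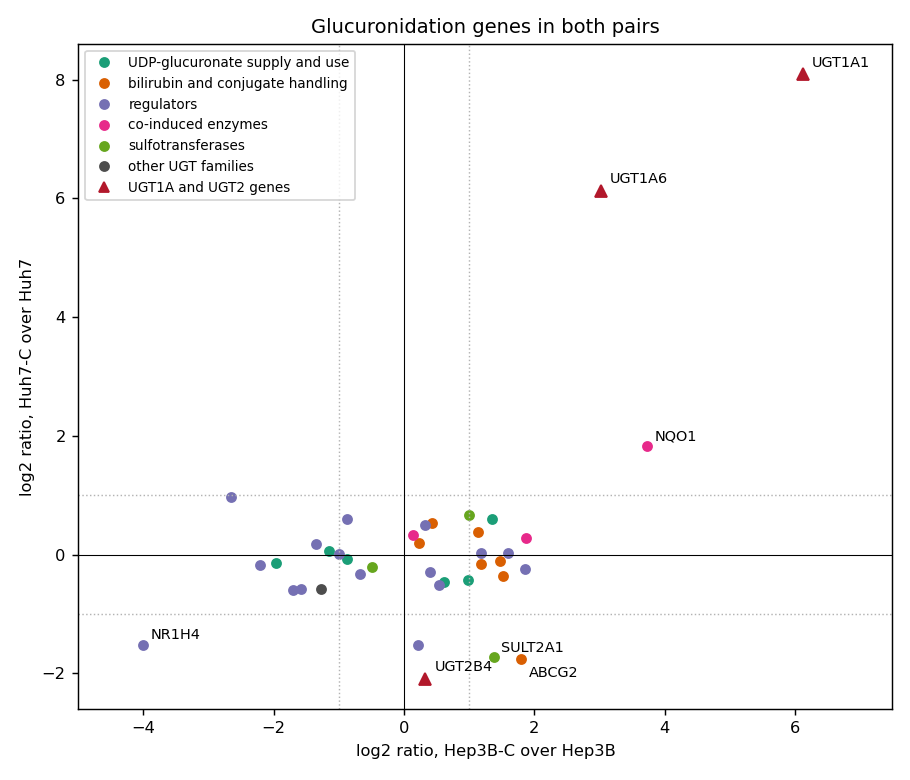
HCSC/HCC log2 ratio in the Hep3B pair (horizontal) and the Huh7 pair (vertical) for genes with at least 20 counts in each, coloured by list, with UGT genes as triangles. Dotted lines mark 2-fold. UGT1A1, UGT1A6 and NQO1 were past 2-fold upward in both pairs, and NR1H4 was past 2-fold downward in both.

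The supply of the sugar donor showed no common direction. UGDH, which makes UDP-glucuronate, had 409 counts in Hep3B against 1666 in Hep3B-C, and 232 in Huh7 against 338 in Huh7-C, with ratios of 2.54 (2.28 to 2.84) and 1.53 (1.29 to 1.81). UGP2, which makes the UDP-glucose that UGDH uses, had 453, 185, 353 and 305 counts, with ratios of 0.255 (0.214 to 0.303) and 0.905 (0.774 to 1.06), and its Hep3B log2 ratio moved from -1.97 to -0.80 with those trends removed. PGM1, a step earlier in the pathway, had 205, 648, 1009 and 718 counts, and GUSB, the lysosomal enzyme that removes glucuronic acid, had 229, 563, 203 and 141. Of the 6 genes of this list 1 was at least 2-fold higher and 2 lower in the Hep3B pair, and all 6 stayed within 2-fold in the Huh7 pair. With the trends removed 2 were higher and 0 lower in the Hep3B pair, beside 18.5% and 38.9% of all genes before that.

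In bilirubin formation and transport, 5 of 9 genes with enough counts were at least 2-fold higher and 1 lower in the Hep3B pair, and 0 of 7 higher and 1 lower in the Huh7 pair, beside 18.5% and 38.9%, and 6.66% and 6.53%, of all genes. HMOX1 and HMOX2, the heme oxygenases that start bilirubin formation, had ratios of 2.28 (1.81 to 2.91) and 2.78 (2.13 to 3.69) in the Hep3B pair and 0.894 (0.792 to 1.01) and 0.931 (0.806 to 1.08) in the Huh7 pair. With the GC and length trends taken out, the Hep3B log2 ratios were 0.05 for HMOX1, 0.55 for HMOX2, 0.35 for FABP1 and -0.08 for BLVRB, a biliverdin reductase, so that these 4 of the 5 lost 2-fold and ABCG2 kept it. ABCC2, which exports conjugated bilirubin into bile, had 273 counts in Hep3B against 588 in Hep3B-C, and 892 in Huh7 against 1229 in Huh7-C. Its ratios were 1.34 (1.16 to 1.56) and 1.44 (1.32 to 1.57). With the trends taken out, the Hep3B log2 ratio of ABCC2 rose from 0.43 to 1.86, past 2-fold. FABP1, a fatty acid binding protein of hepatocytes, had 855, 3020, 2180 and 2700 counts. ABCG2, an efflux pump named after its values were seen, had 8, 47, 220 and 62 counts and differed in direction between the pairs. Of the remaining UGT families, UGT8, which builds galactosylceramide, had 83, 55, 33 and 21 counts, and UGT3A1 and UGT3A2 had 15 and 12 counts in Hep3B and 9 and 6 in Hep3B-C. With enough counts, 2 of these 3 were at least 2-fold lower in the Hep3B pair and 0 of 1 past 2-fold in the Huh7 pair. With the trends removed neither of the 2 was past 2-fold, with UGT8 at 0.17 in place of -1.27 and UGT3A1 at -0.46 in place of -1.39 on the log2 scale.

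The genes next to the UGT loci did not share the ratios of UGT1A1. Within 500 kb of the UGT1A locus, INPP5D, ATG16L1, DGKD, USP40, HJURP, MSL3L2 and TRPM8 were listed, 5 of them with enough counts in each pair. None of the 5 (ATG16L1, DGKD, USP40, HJURP and MSL3L2) was at least 2-fold higher in either pair, and USP40 and HJURP were 2-fold lower in the Hep3B pair, beside 38.9% of all genes. With the trends removed their log2 ratios were -0.21 in place of -1.31 and -0.37 in place of -1.05. DGKD, a diacylglycerol kinase, had 63 counts in Hep3B against 177 in Hep3B-C, and 70 in Huh7 against 98 in Huh7-C, with the highest ratios of the 5 at 1.75 (1.31 to 2.38) and 1.47 (1.07 to 2.02). Beside the UGT2 cluster YTHDC1, a reader of methylated RNA, had 464, 221, 209 and 229 counts in the same order, and its Hep3B log2 ratio turned from -1.75 to 0.29 with the trends removed. SULT1E1, the estrogen sulfotransferase, had 22, 27, 1 and 3 counts. FTLP10, TMPRSS11BNL, TMPRSS11B and SULT1B1 had at most 4 counts in any library.

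The genes whose pattern was nearest to UGT1A1 were found by Euclidean distance of log2(CPM + 1), centred over the 4 libraries, among 11355 genes with at least 50 counts in all. CLDN4, a tight junction protein, was nearest (distance 2.13), with 0 counts in Hep3B against 58 in Hep3B-C, and 5 in Huh7 against 179 in Huh7-C. EVPL, which encodes the desmosomal protein envoplakin, followed (2.39), with 1, 40, 2 and 119 counts. PRODH, the proline oxidase of mitochondria, was at 3.38 with 7, 41, 4 and 99 counts, UGT1A6 at 3.40, and SFN, which encodes the epithelial protein stratifin, at 3.43 with 5, 104, 20 and 113 counts. All 5 were lower in each HCC library than in the HCSC culture grown from it, which is what the distance selects. UGT1A6 shares exons with UGT1A1, so its place among the 5 is not separate from that of UGT1A1.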

How the data were processed

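Libraries of 4 cultures were sequenced by the authors on an Illumina Genome Analyzer II. Reads were filtered for adapters and quality and mapped with NextGENe to an older NCBI human genome build than GRCh38. The deposited values were counts of reads per gene, whole numbers without normalization, with symbol and gene length. The assignment of reads that match several genes is not given in the sources used here. Total counts, from 2896418 to 4641927, set the precision.

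CPM and RPKM were computed from the counts, the total count and the deposited gene length. HCSC/HCC ratios of counts per total were given with exact conditional binomial intervals at 95%, and levels with exact Poisson intervals. Both cover counting error only, and reads without molecular identifiers are not independent molecules. A gene entered a pair's counts with at least 20 counts, and 0.5 was added to each count for log2 ratios. A level of 3 counts was the floor. Genes unlisted in a pair were set to 0 counts in the 4-library fits.

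edgeR 4.0.16 (quasi-likelihood, TMM, filterByExpr, R 4.3.3) tested the lineage with the state as a term, and HCSC against HCC with the parental line as a block, at an FDR of 0.05. Its SE was the log2 fold-change divided by the square root of F. The pairing comes from the labels, and the departures of Hep3B-C and Hep3B from the mean of their group correlated at 0.532 over 12614 genes. The fits were also run on simulated counts with less spread than these data and the same state effect in both lineages. That run does not show how the fits behave on these data. DESeq2 1.42.0, other scalings and filters, and leaving out each library were the alternatives. Fits with a library left out had neither the state term nor the parental block. The authors' kind of Poisson test at an FDR of 0.01 was a further alternative for the pathway lists. GC and length trends were removed by lowess (fraction 0.3, statsmodels 0.14.6). pandas 2.3.3, scipy 1.17.1 and numpy 2.4.6 under Python 3.11.15 were used for the remaining steps, and promoters were aligned with biopython 1.88.

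Exons and GC content came from GENCODE 29 and promoters from RefSeq, both GRCh38, and no reads were mapped to them. From each list the text names genes past 2-fold alike in both pairs, genes called by edgeR, and up to 4 others with the highest count. In the regulator list 1 gene that this rule names is not reported here. The members and lists were chosen with earlier results of these data known.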

Additional observations from a re-analysis of the deposited data

Results flagged for a closer look

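Some results had opposite directions in the pairs, with every interval on its own side of 1. That was the whole rule for UGT genes and sums. Pathway genes also had to be at least 2-fold higher in 1 pair and at least 2-fold lower in the other. Further pathway genes, AHR and HNF4A among them, had intervals on opposite sides of 1 and are left out by that rule. UGT2B4 had a log2 HCSC/HCC ratio higher by 2.41 in the Hep3B pair than in the Huh7 pair. For the summed UGT2 counts the difference was 2.24, and for the UGT2B genes alone 2.70. ABCG2, the efflux pump, had ratios of 3.67 (1.72 to 8.98) in the Hep3B pair and 0.295 (0.219 to 0.393) in the Huh7 pair, a difference of 3.55. SULT2A1, a hepatic sulfotransferase of bile acids and steroids, had ratios of 2.63 (1.82 to 3.90) and 0.289 (0.114 to 0.648), a difference of 3.11. With 1 library per line these differences were not tested.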

How the results depend on the processing

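Among UGT genes with at least 20 counts in a pair, 20 of 27 alternative log2 ratios moved by less than the counting error, and 2 (both UGT2A3 in the Hep3B pair) turned in sign. Under that minimum the counting error was too wide to judge a move, and 5 of 30 turned in sign. UGT ratios past 2-fold kept their direction and stayed past 2-fold in 21 of 21 alternatives. Their size did not always hold. It fell beyond the counting error with 5 added to each count for UGT1A6 in the Huh7 pair and UGT2B10 in the Hep3B pair. These ratios chose the family, and each alternative rescaled the same libraries, so this is a description and no support. The number of UGT genes past 2-fold was 3 to 6 in the Hep3B pair, and in the Huh7 pair it was 8 in place of 3 with no filter on counts (6 higher and 2 lower), since genes of few counts entered. The 27 pathway genes past 2-fold in the Hep3B pair became 15 (8 higher, 7 lower) with GC and length trends removed. Pathway calls between HCSC and HCC were 0 with the replicate block and 0 with no replicate block, and 0 to 1 when each library was left out. Lineage calls ranged from 0 to 4 in the same way, where the lone library of a lineage was assumed to vary like the others. The lineage log2 fold-change of UGT1A1 ranged from -6.16 (without Huh7-C, a turn in sign) to 6.91, and that of UGT1A6 from -7.08 to 2.61, with turns to 0.82 without Huh7 and 2.61 without Hep3B-C. The fits behind these ranges and turns left out a library and also lacked the state term. State and lineage could not be told apart in them, and the cause was not tested further. UGT2B4 had an edgeR adjusted p of 0.0597 with no filter. Levels at or under 3 counts limit UGT1A4, UGT1A9 and UGT2B15.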

Other observations

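Sulfotransferases, which conjugate many of the same phenols and steroids as UGTs, did not share a direction across the pairs. In the Hep3B pair 2 of 5 with enough counts were at least 2-fold higher and 0 lower, and in the Huh7 pair 0 of 4 were higher and 1 lower, beside 18.5% and 38.9%, and 6.66% and 6.53%, of all genes. SULT1A1, the main phenol sulfotransferase of the liver, had 89 counts in Hep3B against 287 in Hep3B-C, and 36 in Huh7 against 55 in Huh7-C, with ratios of 2.01 (1.58 to 2.58) and 1.60 (1.03 to 2.51), and its Hep3B log2 ratio was 0.53, under 2-fold, with GC and length trends removed. SULT1C2 had 117, 133, 23 and 19 counts in the same order, and SULT1A2, a near copy of SULT1A1 whose reads may be shared with it, had 25, 73, 1 and 2. SULT2A1 had 36, 152, 29 and 8 counts. In the edgeR test of HCSC against HCC none of the 43 pathway genes tested was called, and 4 had an unadjusted p under 0.05.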
